A study of Ovis aries with 5 samples.

Results

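T cell receptor chains and WC1, a surface protein of ruminant gamma delta T cells that sheep sequence records call T19, were examined in dendritic cells (DC) sorted from the skin lymph of sheep. The probes were chosen by their deposited descriptions, as those that name a T cell receptor (other than CD3 or the zeta chain) or T19 or WC1. There were 52 such probes of 15008 distinct 60-base probes on the array. By description 1 probe was for the alpha chain, 16 for the beta chain, 6 for the gamma chain, 21 for the delta chain and 7 for WC1, and 1 probe belonged to none of these groups. Apart from WC1, these probes were designed to single sequenced cDNA clones of rearranged receptors, so that a probe may report a variable segment or a clone rather than a chain as a whole.

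The cells carried CD1b, a lipid antigen-presenting molecule, and were sorted by the surface protease CD26 into a CD1b+CD26+ and a CD1b+CD26- subset. Both subsets were taken from the same 2 sheep, 10081 and 30066, which gave 2 arrays per subset and 4 subset arrays in all. Ages, breed and treatments of the sheep were not given in the sources used here. Each subset RNA was labelled with Cy3 and hybridised against a Cy5 reference, and 1 further array, the self-hybridisation, held the reference in both dyes. The sample labels describe the reference as total enriched lymph DC of sheep other than these, whereas the labelling protocol names RNA from a culture of LP-1cl1 cells. It is called total DC here. Values are log2 ratios of Cy3 over Cy5. A value of a subset array is therefore read against 0 and against the same probe on the self-hybridisation. The 2 arrays of sheep 10081 lay in a different row of the slide from the other arrays, and the effects of sheep and of slide row cannot be told apart.

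A T cell receptor is built from an alpha and a beta chain or from a gamma and a delta chain. The variable part of each chain is assembled from gene segments, called V, D (in beta and delta chains) and J, which are joined at random in each developing T cell, so that every T cell clone carries its own junction. The receptor reaches the cell surface with the CD3 proteins and the zeta chain. WC1 molecules belong to the scavenger receptor cysteine-rich family and act as co-receptors on gamma delta T cells, which are abundant in the blood and skin of ruminants. These genes serve as markers of T cells, not of DC.

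The beta chain probes of AF030005 and AF030006, each a 60-base stretch of a beta chain clone, are shown because they gave like values. Capitals mark their longest common run of 22 bases; in all, 55 of 60 aligned bases matched (91.7%). AF030024 is shown because it was the beta chain probe with the largest difference between the subsets, and AF030009 because its 4 subset arrays fell in the same order as those of AF030005.
AF030005: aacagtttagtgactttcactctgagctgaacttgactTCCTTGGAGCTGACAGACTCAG
AF030006: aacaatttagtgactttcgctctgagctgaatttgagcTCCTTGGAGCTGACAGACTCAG
AF030009: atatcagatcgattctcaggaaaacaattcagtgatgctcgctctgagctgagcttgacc
AF030024: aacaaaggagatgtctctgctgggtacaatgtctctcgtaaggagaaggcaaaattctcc

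Of the gamma chain probes, which each stood high on 1 or 2 of the subset arrays, 5 of 6 are shown; Z12965 is not. Z12967 had the largest ratio of all the probes described here.
Z12967: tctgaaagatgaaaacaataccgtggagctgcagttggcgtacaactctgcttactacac
Z12964: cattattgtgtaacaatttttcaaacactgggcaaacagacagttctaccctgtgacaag
Z13001: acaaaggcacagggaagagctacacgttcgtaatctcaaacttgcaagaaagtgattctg
Z13002: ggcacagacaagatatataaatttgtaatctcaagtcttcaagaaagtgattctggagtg
Z13006: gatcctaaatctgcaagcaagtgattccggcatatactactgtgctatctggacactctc

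For the delta chain, Z12970 and Z12981 are shown because they share a run of 40 bases, marked in capitals, and were both highest on 1 array. Z12982 and Z12986 each hold a short run, in capitals, of a likely J segment.
Z12970: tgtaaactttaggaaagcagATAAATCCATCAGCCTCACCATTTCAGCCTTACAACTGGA
Z12981: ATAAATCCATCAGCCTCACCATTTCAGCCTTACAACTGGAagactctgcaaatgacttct
Z12982: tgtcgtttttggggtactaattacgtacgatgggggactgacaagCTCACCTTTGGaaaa
Z12986: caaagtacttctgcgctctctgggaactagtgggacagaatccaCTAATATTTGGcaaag

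Among the WC1 probes, Y15214 probe b and Y15217 share a run of 40 bases (capitals) and are shown as the WC1 probes that were detected on every array.
Y15214 probe b: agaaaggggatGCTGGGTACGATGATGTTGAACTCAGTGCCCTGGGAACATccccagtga
Y15217: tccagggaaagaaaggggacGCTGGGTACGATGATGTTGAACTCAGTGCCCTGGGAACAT

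Many of the probes overlap one another in sequence and are not independent measurements. Of the probes described here, 25 took part in 31 pairs with a common run of at least 20 bases: 15 delta chain, 4 beta chain and 6 WC1 probes. The gamma chain probes and the alpha chain probe took part in no such pair.

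Much of this group lay close to the detection limit. A spot was counted as detected where the scanner software called it well above background in Cy3. Spots that the software marked as outliers, or that lay beside bright specks, were counted as not detected. Of the 51 chain and WC1 probes, 19 (37.3%) were detected on all 5 arrays, against 71.3% of all probes on the array. On none of the arrays were 7 detected (13.7%), against 6.96% of all probes; 6 of them were delta chain probes and 1 was a beta chain probe. By array, 30 of the 51 were detected on the self-hybridisation, 21 and 24 on the CD26- and CD26+ arrays of sheep 30066, and 40 and 31 on the CD26- and CD26+ arrays of sheep 10081. Of all probes, 81.3%, 80.8%, 82.5%, 88.7% and 83.2% were detected on these arrays in the same order, so that the CD26- array of sheep 10081 was highest in both counts. The fit took in the 37 that were detected on at least 2 arrays, as were 88.3% of all probes: the alpha chain probe, 13 beta, 4 gamma and 13 delta chain probes and 6 WC1 probes. The other 14 are given as values with no test.

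The fit called none of these probes different in any comparison. With limma, at an adjusted p under 0.05 over all 13252 tested probes, 0 of the 37 were called between CD26+ and CD26- cells, where 0% of all tested probes were called. Against total DC, 0 of 37 were called in CD26+ cells and 0 of 37 in CD26- cells, and the share over all tested probes was again 0% in both. At an unadjusted p under 0.05 the 3 comparisons held 0, 1 and 1 of the 37, and 743, 1494 and 1402 of all tested probes. The single probe in both cases was that of the alpha chain. With 2 arrays a subset and 1 self-hybridisation, the number of arrays limits every comparison, and the values below are descriptions of size.

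The alpha chain probe, M55622, was higher on every subset array than on the self-hybridisation. It reports a clone described as holding the V, J and constant regions, so it differs in kind from most of the beta, gamma and delta chain probes. Its log2 ratio was 0.27 on the self-hybridisation, 1.49 and 1.93 on the CD26- and CD26+ arrays of sheep 30066, and 2.09 and 2.45 on those of sheep 10081. All 4 subset arrays lay above the self-hybridisation, CD26+ lay above CD26- in both sheep, and sheep 10081 lay above sheep 30066 in both subsets. The Cy3 signal before correction was 285 units on the self-hybridisation and 756 to 1513 units on the subset arrays.

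Against total DC the alpha chain value was higher by 1.92 in CD26+ cells (SE 0.52, limma adjusted p = 0.367) and by 1.52 in CD26- cells (SE 0.52, limma adjusted p = 0.444). Both comparisons use the same self-hybridisation array. The excess was at least 2-fold in both sheep for both subsets, as it was in 9.72% of tested probes for CD26+ cells and in 10.0% for CD26- cells. Between the subsets the difference was 0.40 (SE 0.43, limma adjusted p = 1.0), 0.44 in sheep 30066 and 0.36 in sheep 10081. Under a background model that took in all spots, the difference from total DC in CD26- cells was 0.90 and that between the subsets was 1.02. In sorted cells measured in bulk, a difference in the number of cells of a type and one in RNA per cell cannot be told apart. The reference came from other sheep by the labels, or from cultured cells by the protocol. Effects of sorting and of the source of the reference therefore cannot be told apart either.

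The proteins that carry the receptor to the cell surface were represented by 3 of 10 genes listed for the receptor complex and its signalling, all 3 of them tested and none called. CD3E, a CD3 chain of all T cell receptors, had a log2 ratio of 0.50 on the self-hybridisation, 1.23 and 0.96 on the CD26- and CD26+ arrays of sheep 30066, and 1.43 and 2.40 on those of sheep 10081. Like the alpha chain it was above the self-hybridisation on all 4 subset arrays. CD3D, another CD3 chain, was at -0.10 on the self-hybridisation, where it was not well above background, at 1.41 and 0.10 for sheep 30066 and at 4.11 and 3.18 for sheep 10081, again with CD26- first. CD247, the zeta chain, went the other way, at -0.03 on the self-hybridisation, at -1.92 and -0.30 for sheep 30066 and at -2.53 and -1.44 for sheep 10081. Summed over the 3 genes on a linear scale, the ratio was 3.32 on the self-hybridisation, 5.26 and 3.84 in sheep 30066 and 20.2 and 14.7 in sheep 10081. The order of this sum over the subset arrays was not that of the alpha chain, and its part in the alpha chain values was not tested.

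Of 18 further T cell genes listed, 8 were on the array and 7 were tested, with none called and a median difference of 0.11 from total DC in both subsets. CD5, a surface receptor of T cells and some B cells, was at 0.21 on the self-hybridisation, at -0.18 and 2.12 for sheep 30066 and at 0.99 and 1.82 for sheep 10081. GATA3, a transcription factor of T cells and other lymphoid cells, was at 0.27, at 1.88 and -1.14, and at 1.53 and 1.41 on the same arrays. CD4, which marks helper T cells and some DC, was represented by a probe that lay between -0.18 and 0.02 on all 5 arrays and was well above background on the self-hybridisation and on the CD26+ array of sheep 10081. Its other probe lay between -0.022 and 0.083 and was well above background on the CD26- array of sheep 10081. IL2, a T cell cytokine, was well above background on none of the arrays.

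WC1 probes were lower in the sorted cells than in total DC on every subset array. All 7 lay below their own self-hybridisation value on all 4 subset arrays, against 25.8% of all probes, and so did 6 of the 6 tested, against 26.3% of tested probes. Each of these comparisons is made with the same self-hybridisation array, and the rule of counting probes below it was chosen after the values were seen. As 6 of the 7 share a run of at least 20 bases with another WC1 probe, they do not make 7 separate measurements. The median difference from total DC was -0.46 in CD26+ cells and -0.53 in CD26- cells, where the medians of all tested probes were -0.024 and -0.032. Effects of sorting and of the source of the reference RNA cannot be told apart in these differences. Between the subsets the WC1 median was -0.024, with 3 probes higher and 3 lower in CD26+ cells.

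Y15214 probe b and Y15217 were the 2 WC1 probes detected on all 5 arrays. Y15214 probe b had a log2 ratio of -0.11 on the self-hybridisation, -0.98 and -1.06 on the CD26- and CD26+ arrays of sheep 30066, and -0.69 and -1.09 on those of sheep 10081. Y15217 was at 0.03 on the self-hybridisation, at -0.88 and -0.79 for sheep 30066 and at -0.73 and -0.72 for sheep 10081. The subset arrays of each probe did not overlap with its self-hybridisation value. Against total DC the difference of Y15214 probe b was -0.97 in CD26+ cells (SE 0.43, limma adjusted p = 0.493) and -0.73 in CD26- cells (SE 0.43, limma adjusted p = 0.641). For Y15217 the corresponding differences were -0.79 (SE 0.41, limma adjusted p = 0.551) and -0.84 (SE 0.41, limma adjusted p = 0.587).

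The remaining WC1 probes were closer to background, and a ratio between dim signals understates a difference. S76323 stood at -0.10 on the self-hybridisation and at -0.77, -0.58, -0.67 and -0.47 on the CD26- and CD26+ arrays of sheep 30066 and then of sheep 10081. In the same order Y15213 probe a gave -0.17 and then -0.54, -0.66, -0.63 and -0.68, and Y15213 probe b gave -0.25 and then -0.57, -0.59, -0.79 and -0.73. These 2 probes share 58 bases and count as a single measurement of one sequence.

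Y15214 probe a stood at -0.18 on the self-hybridisation and at -0.39, -0.36, -0.37 and -0.53 on the subset arrays in that order. S76320, which was not tested, stood at 0.06 and then at -0.68, -0.57, -0.53 and -0.69. It was detected on the self-hybridisation and on no subset array, and was at least 1.57-fold higher in total DC than in CD26+ cells and at least 1.55-fold higher than in CD26- cells. Such a bound is taken on the normalised Cy3 signal alone. It sets the brighter group against the lowest signal detected on the dimmer arrays, or the probe's own signal where that is higher. None of the WC1 probes was 2-fold below the self-hybridisation in both sheep, as 8.64% of tested probes were in CD26+ cells and 7.41% in CD26- cells.

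The WC1 differences depended on the background model, which was fitted without spots that lie beside bright specks. Fitted on all spots, it left 3 of 6 tested WC1 probes below the self-hybridisation on all 4 subset arrays, and the median difference in CD26- cells was -0.037, with -0.24 for Y15214 probe b and -0.30 for Y15217. In CD26+ cells the median was -0.41 with that model.

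The beta chain probes showed no common shift. Over the 13 tested, the median difference between CD26+ and CD26- cells was 0.029, with 7 higher and 6 lower in CD26+ cells, and the medians against total DC were -0.013 in CD26+ and -0.11 in CD26- cells. Individual beta chain probes differed more, in both directions. Over all chains, 2 of 37 tested probes (5.41%) were at least 2-fold apart between the subsets in the same direction in both sheep, close to the 5.26% of all tested probes. Both were beta chain probes, AF030005 in 1 direction and AF030024 in the other. AF030024 met the detection filter only through the CD26- arrays, where it was high.

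AF030005 was higher in CD26+ cells. Its log2 ratio was -0.20 on the self-hybridisation, -1.28 and -0.01 on the CD26- and CD26+ arrays of sheep 30066, and -0.45 and 0.78 on those of sheep 10081. The difference between the subsets was 1.25 (SE 0.51, limma adjusted p = 0.884), 1.27 in sheep 30066 and 1.23 in sheep 10081. A higher value in CD26+ cells, at least 2-fold in both sheep, was found for 2.36% of tested probes.

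AF030006, which matches AF030005 at 55 of 60 bases, stood at -0.02 on the self-hybridisation, at -0.54 and 0.13 for sheep 30066 and at 0.03 and 0.45 for sheep 10081. AF030009 stood at -0.29, at -0.64 and 0.23, and at -0.14 and 0.64 on the same arrays. In these 3 beta chain probes CD26+ lay above CD26- in both sheep, and the CD26- array of sheep 30066 was the lowest and the CD26+ array of sheep 10081 the highest. AF030006 and AF030009 were not well above background on the CD26- array of sheep 30066. The differences between the subsets were 0.55 (SE 0.40) for AF030006 and 0.83 (SE 0.40) for AF030009. AF030009 matched AF030005 at 30 of 38 aligned bases (78.9%), and whether the 3 probes bind the same transcripts was not tested.

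AF030024 was detected on both CD26- arrays and on none of the others. Its log2 ratio was -0.15 on the self-hybridisation, 3.27 and 0.02 on the CD26- and CD26+ arrays of sheep 30066, and 0.98 and -0.15 on those of sheep 10081. The 2 CD26- arrays lay above all 3 other arrays, where the probe was not well above background. By the Cy3 signal alone, averaged over both sheep, it was 6.57-fold higher in CD26- than in CD26+ cells and 6.88-fold higher than in total DC. The fitted differences of the ratios to Cy5 were smaller. The fitted difference between the subsets was -2.19 (SE 0.85, limma adjusted p = 0.884), -3.25 in sheep 30066 and -1.13 in sheep 10081. The probe entered the fit only through the CD26- arrays, where it was high. Its direction was thus tied to the filter, and no conclusion is drawn from the test. A value at least 2-fold lower in CD26+ cells in both sheep was found for 2.90% of tested probes.

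M94182, an earlier beta chain clone, was lower than total DC on 3 of the 4 subset arrays. It stood at -0.27 on the self-hybridisation, at -2.04 and -1.76 on the CD26- and CD26+ arrays of sheep 30066, and at -1.87 and 0.19 on those of sheep 10081. It was not well above background on the subset arrays of sheep 30066. In CD26- cells it was at least 2-fold below the self-hybridisation in both sheep, like 7.41% of tested probes. The difference from total DC was -1.69 in CD26- cells (SE 0.91, limma adjusted p = 0.608), and that between the subsets was 1.17 (SE 0.74, limma adjusted p = 0.956).

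AF030023 did not follow M94182, although the files list both accessions for it and the probes share 17 bases. It had a log2 ratio of 0.96 on the self-hybridisation, 0.90 and 0.64 in sheep 30066 and 0.07 and 0.17 in sheep 10081. Its highest value was that of the self-hybridisation, where both dyes carry the same RNA, so a ratio of this size was reached with no difference in RNA.

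The background model moved these beta chain differences as well. Fitted on all spots, it gave 0.59 for AF030005, -0.81 for AF030024 and 0.21 for M94182 between the subsets, and neither AF030005 nor AF030024 was then 2-fold apart in both sheep. Leaving out 1 array at a time gave 0.83 to 1.67 for AF030005, -3.33 to -1.04 for AF030024 and 0.20 to 2.14 for M94182. The low value for M94182 was that without the CD26+ array of sheep 10081.

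Of the other bright beta chain probes, AF030017 was high on 1 array. It stood at -0.12 on the self-hybridisation, at -0.47 and -0.59 for sheep 30066 and at 1.53 and 0.36 for sheep 10081, so that the CD26- array of sheep 10081 was the highest. AF030015 stood at 0.60 and then at 0.47, 0.28, -0.11 and 0.21, and AF030021 at 0.15 and then at 0.08, -0.12, 0.14 and 0.39, with overlapping values in CD26- and CD26+ cells. AF030018, a dimmer probe named after its values were seen, was high on the CD26+ array of sheep 30066 alone, at 1.67, with the other 4 arrays between -0.05 and 0.08. The spot of AF030026 on that same array read 17689 Cy3 units, against 51 to 79.8 on the others. The scanner software had marked it as an outlier, so it was left out.

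The gamma chain probes were the most uneven of the chains. Over the 4 tested, the median difference between CD26+ and CD26- cells was -0.69, with 1 higher and 3 lower in CD26+ cells, and each of the 6 probes stood high on only 1 or 2 subset arrays. Z12967 was high in CD26- cells of 1 sheep and in CD26+ cells of the other. Its log2 ratio was 0.20 on the self-hybridisation, 4.12 and 0.07 on the CD26- and CD26+ arrays of sheep 30066, and 0.18 and 3.24 on those of sheep 10081. The Cy3 signals behind these ratios were 65.8 units on the self-hybridisation, 1223 and 74.6 units in sheep 30066 and 96.7 and 781 units in sheep 10081.

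The difference between CD26+ and CD26- cells for Z12967 was therefore -4.05 in sheep 30066 and 3.07 in sheep 10081, and -0.49 over both (SE 1.74, limma adjusted p = 1.0). The difference between the sheep, with 1 array each, could not be tested. Such opposite differences of at least 2-fold in the 2 sheep were found for 2.01% of tested probes. The files list the accession of Z12967 also for a sequence tag, EE804507, whose probe shares no run of 20 bases or more with it. EE804507 stood at 0.02 on the self-hybridisation, at 2.20 and -0.85 on the CD26- and CD26+ arrays of sheep 30066, and at 2.61 and 2.13 on those of sheep 10081. Its difference between the subsets was -3.05 in sheep 30066 and -0.48 in sheep 10081, so it did not show the opposite signs of Z12967. For Z12967 against total DC the differences were 1.46 in CD26+ cells (SE 2.14) and 1.95 in CD26- cells (SE 2.14), with limma adjusted p of 0.861 and 0.836. Without the CD26+ array of sheep 10081 the first was -0.13, and without the CD26- array of sheep 30066 the second was -0.024.

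Z12964 and Z13001 were high on the CD26- array of sheep 10081. Z12964 stood at -0.10 on the self-hybridisation, at -0.60 and -0.36 in sheep 30066, and at 2.05 and -0.01 on the CD26- and CD26+ arrays of sheep 10081. Z13001 stood at -0.21, at -0.22 and -0.11, and at 1.63 and -0.26 on the same arrays. Z13002, detected on that array alone, stood at 1.22 there and between 0.02 and 0.05 elsewhere.

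The CD26+ array of sheep 10081 was the high one for the other gamma chain probes. Z13006, detected on that array alone, stood at 1.65 there and between -0.17 and 0.15 elsewhere. Z12965 stood at 0.25 on the self-hybridisation, at 0.10 and 0.18 for sheep 30066 and at 0.11 and 1.22 for sheep 10081. For 5 of the 6 gamma chain probes, then, a single array of sheep 10081 stood above all others.

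This form, with 1 subset array at least 2-fold above the other 3, was counted over all chains once it had been seen. It held for 8 of the 37 tested probes (21.6%), against 12.7% of all tested probes, and for 11 of the 51 chain and WC1 probes (21.6%), against 11.6% of all probes. The 11 were 5 of 6 gamma chain, 4 of 16 beta chain and 2 of 21 delta chain probes, with no alpha chain and no WC1 probe. For the beta chain probe M94182 the high array stood at only 0.19, and its other subset arrays lay low, at -2.04 to -1.76. The opposite form, with 1 subset array 2-fold below the other 3, held for 0 of 37, against 10.4% of tested probes. Only 19 of the 51 were detected on all arrays, and a probe near background can hardly fall 2-fold further. These shares are therefore not comparable.

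The high array was 1 of sheep 10081 for 9 of the 11 probes and 1 of sheep 30066 for 2, and a CD26- array for 6 and a CD26+ array for 5. Of the 1742 probes of the whole array with this form, each of the 4 subset arrays held 24.6% to 25.6%. Sheep 10081 was the sheep with the higher sums for the receptor complex genes, of which CD3D had the highest ratios there. CD247 was instead lower in sheep 10081 than in sheep 30066, at -1.14 in CD26+ and -0.61 in CD26- cells. The part of these sums in the probe values was not tested. The bright spots were even: the mean signal over the pixels of the spot was 0.98 to 1.06 times the median. Their Cy3 signals before correction were 111 to 1078 units. Under the background model that took in all spots the count was 3 of 37, against 11.2% of tested probes.

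None of the 51 probes was at least 2-fold apart between the sheep in the same direction in both subsets, whereas 8.94% of tested probes and 7.90% of all probes were. Only 19 of the 51 were detected on all arrays, and a ratio between dim signals understates a difference. These shares are therefore not comparable. Z12967 was more than 2-fold apart in both subsets, but in opposite directions. M55622 lay higher in sheep 10081 in both subsets by less than 2-fold, by 0.52 in CD26+ and 0.60 in CD26- cells, and so did AF030005, by 0.79 and 0.83. With median centring in place of loess, or with the scanner's processed signals, 1 of 37 was 2-fold apart in both subsets, the beta chain probe AF030017. CD3D, by contrast, was higher in sheep 10081 by 3.08 in CD26+ cells and by 2.71 in CD26- cells.

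The delta chain probes were mostly dim and mostly close to the reference. Of 21, 8 were not tested. Over the 13 tested, the median difference between the subsets was 0.23, with 10 higher and 3 lower in CD26+ cells, and the medians against total DC were 0.22 in CD26+ cells and -0.17 in CD26- cells. No delta chain probe was 2-fold apart between the subsets in both sheep. Of the 4 subset arrays, the CD26+ array of sheep 10081 gave the highest value for 11 of the 21 delta chain probes, while 24.5% of all probes were highest there. Among the 11, Z12980, Z12983 and Z12992 were detected on no array and stood at only 0.16, 0.16 and 0.09 there. As 15 of the 21 overlap with another probe in sequence, they do not make 21 separate measurements.

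Z12970 and Z12981, which share 40 bases, show this form. Z12970 had a log2 ratio of -0.09 on the self-hybridisation, -0.19 and -0.05 in sheep 30066, and -0.42 and 1.27 on the CD26- and CD26+ arrays of sheep 10081. Z12981 stood at 0.00, at -0.42 and -0.39, and at -0.44 and 0.54 on the same arrays. In both, the CD26+ array of sheep 10081 was the only one with a ratio above 0.

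Among the tested delta chain probes, Z12986 had the largest difference from total DC in CD26- cells. It stood at -0.07 on the self-hybridisation, at 1.05 and 0.70 for sheep 30066 and at 0.77 and 0.35 for sheep 10081, above the self-hybridisation on all 4 subset arrays. All 4 subset arrays were above the self-hybridisation for 22.8% of tested probes. The difference was 0.98 in CD26- cells (SE 0.45, limma adjusted p = 0.565) and 0.59 in CD26+ cells (SE 0.45, limma adjusted p = 0.691).

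Other bright delta chain probes varied less. Z12975 stood at 0.36 on the self-hybridisation and at 0.60, 0.49, 0.38 and 0.95 on the CD26- and CD26+ arrays of sheep 30066 and then of sheep 10081. Z12995 stood at 0.36 and then at 0.68, 0.44, -0.15 and 0.09, and Z12982 at 0.03 and then at -0.14, 0.40, 0.18 and 0.15. The differences between the subsets were 0.23 for Z12975 and 0.26 for Z12982, and the values of the subsets overlapped in all 3.

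Z12996, which was not tested, was detected on the CD26- array of sheep 10081 alone, at 2.43, with the other arrays between -0.19 and 0.08. It was at least 2.43-fold higher in CD26- than in CD26+ cells and at least 2.14-fold higher than in total DC, a difference that rests on that 1 array. The CD26- array of sheep 10081 was also the high one for the gamma chain probes Z12964, Z13001 and Z13002 and for the beta chain probe AF030017.

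Where a probe lies along the rearranged chain was read from short motifs, searched on both strands. J segments hold TTTGG or a close relative at a conserved place, and 11-base runs that end in TTTGG were taken where at least 3 delta chain probes held them. There were 2 such runs, CTCACCTTTGG in 6 and CTAATATTTGG in 3 delta chain probes, found in 0.0466% and 0.0400% of all probes. The commonest 11-base run of the beta chain probes, ACGCAGTACTT, was in 4 of them and in 0.0267% of all probes. The motifs were picked from the sequences of these probes, and a match is a description of the letters.

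A probe with such a motif would reach into a J segment. Of the 9 delta chain probes with a motif, 4 were tested, 4 were detected on no array and none was high on a single array. Of the 12 without, 9 were tested, 2 were detected on no array and 2 were high on a single array. All 4 beta chain probes that were high on a single array relative to the other subset arrays, M94182 among them, lacked the motif. So did 12 of the 16 beta chain probes. These counts are small and no test was made of them.

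Further receptor probes on the array fell outside the wording used to choose the group, and 7 were found through a common run or a shared accession. They include 5 delta chain clones from intraepithelial lymphocytes (IEL) of the uterus. AJ005907 is one of these, and EE810034 is a sequence tag that shares 43 bases with it. The delta chain probe Z12973 is set beside them because all 3 hold the run of 24 bases in capitals.
Z12973: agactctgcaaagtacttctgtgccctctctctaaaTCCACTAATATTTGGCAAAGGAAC
AJ005907: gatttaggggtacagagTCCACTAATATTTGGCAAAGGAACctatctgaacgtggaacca
EE810034: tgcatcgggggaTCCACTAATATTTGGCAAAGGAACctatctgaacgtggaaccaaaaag

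AJ005907 stood at 0.03 on the self-hybridisation, at -0.03 and 0.06 in sheep 30066 and at 2.24 and 2.53 on the CD26- and CD26+ arrays of sheep 10081. EE810034 stood at 0.01, at 0.02 and 0.02, and at 2.24 and 2.57 on the same arrays. Both were thus high in both subsets of sheep 10081. In sheep 30066 EE810034 was detected and level with the reference. AJ005907 was detected neither there nor on the self-hybridisation, so its ratios on those arrays compare dim signals. Z12973, which differs from both before the common run, stood at 0.05, at -0.18 and 0.01, and at -0.06 and -0.45, and did not follow them. It was detected on the arrays of sheep 10081 alone. AJ005910 stood at 1.17 on the CD26+ array of sheep 10081 and between -0.04 and 0.46 on the others. AJ005904, not tested and detected on that array alone, stood at 0.93 there and between -0.09 and 0.03 on the others. AJ005908, detected in sheep 10081 alone, stood at 0.82 there and between 0.10 and 0.27 on the others. AJ005903 went the other way, at 0.17 on the self-hybridisation and -0.51 on the CD26+ array of sheep 30066. In sheep 10081 it stood at -0.56 and -0.78, and it had no value on the remaining array.

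The single probe outside the chain groups, X90567, carries a description that names both a T cell receptor and CD1b. It was detected on the CD26- array of sheep 10081 alone, at 0.85, with the others between -0.14 and 0.22, and it was not tested. CD1B, the sort marker, was measured by other probes that were well above background on all 5 arrays, so the labelled DC marker was present in both subsets and in total DC. The CD1B probe with the highest mean intensity stood at -0.74 on the self-hybridisation, at -0.81 and -1.01 for sheep 30066 and at 0.28 and -0.15 for sheep 10081. The deposited wording is thus the sole link of X90567 to the receptor chains.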

How the data were processed

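Total RNA of sorted sheep lymph DC was measured on 5 two-colour Agilent arrays. Per the labels, 200 ng of RNA were amplified before labelling, and the sample was always in Cy3. The deposited scanner files give linear spot intensity without normalisation and, per the file headers, a log10 ratio of processed signals; the scanner software was Feature Extraction 9.5.3.1. The deposited value table holds a log2 ratio, which equals the scanner's ratio turned to Cy3 over Cy5. No dye swap was made.

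Mean signals were corrected with normexp (offset 50), fitted after removal of spots with a local background over 5 times the median of their array, and normalised by loess within each array (limma 3.58.1, R 4.3.3). Control spots (536 per array), spots marked as outliers (49 to 157 per array) and spots beside specks were left out. Median Cy3 signals were 204 to 307 units over a background of 36.5 to 39 units. Tested were the probes that at least 2 arrays showed well above background in Cy3 (13252 of 15008). A model of 3 group means was fitted with limma (lmFit, eBayes), with Benjamini-Hochberg adjustment over all tested probes, and were tested on simulated data.

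The members, the gene lists and the background setting were chosen with earlier results of these data known. Named were all members of groups of up to 6 probes, the 6 brightest tested members of larger groups, and listed genes by their brightest probe; AF030006, AF030009, AF030018, AF030024, AF030026, Z12973, Z12996, the remaining WC1 probes and the receptor probes outside the group were named after their values were seen. Lists of NK, B cell, DC and monocyte genes had 1, 0, 2 and 1 genes on the array. The brightest probe of GNLY, of cytotoxic cells, had log2 ratios of 0.39 on the self-hybridisation and -4.89 to -1.48 on 3 subset arrays. It had no value on the CD26- array of sheep 10081. The other GNLY probes stood there at -1.02 to -0.91, above their -1.44 to -1.32 on the CD26+ array of that sheep. CD86, of DC, stood at -0.08 on the self-hybridisation and at -1.91 to -0.58 on the subset arrays. CD14, of monocytes, stood at 0.21 and at -1.55 to 0.32. The labels pair the subsets by sheep, and deviations of the 2 arrays of a sheep from their group means correlated with r = 0.33 across probes. Alternatives were other background and normalisation settings, other filters, sheep as a block and leaving out each array. Sequences are those of the deposited files, with no genome used, so no positions are given.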

Additional observations from a re-analysis of the deposited data

Results flagged for a closer look

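The gamma chain probe Z12967 was singled out because its difference between CD26+ and CD26- cells had opposite signs in the 2 sheep, at 3.07 on the log2 scale in sheep 10081 and at -4.05 in sheep 30066. The difference between the sheep was not tested, since each sheep gave 1 array per subset. The probe of EE804507, listed with the same accession, gave -0.48 in sheep 10081 and -3.05 in sheep 30066. Opposite differences of at least 2-fold were found for 267 tested probes, or 2.01%.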

How the results depend on the processing

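The number of calls stayed at 0 for all probes and for the chain and WC1 probes in all 3 comparisons with sheep as a replicate block and under every other alternative run, so the pairing changed no call. Alternative values were followed for M55622, AF030005, AF030024, M94182, Z12967, Y15214 probe b and Y15217, mostly for differences of at least 2-fold. The filters and the sheep block leave a probe's own difference unchanged, so they could not change its direction. Of the 128 alternative values, 126 kept their direction. The exceptions were both Z12967 against total DC, at -0.13 for CD26+ cells without the CD26+ array of sheep 10081 and at -0.024 for CD26- cells without the CD26- array of sheep 30066. Leaving out 1 array gave -0.13 to 3.04 for the first and -0.024 to 3.92 for the second.

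With all spots in the background model, 0 probes were 2-fold apart between the subsets in both sheep, in place of 2. That count was 1 of 37 with median centring, against 4.68% of all tested probes. With probes detected in both dyes on all arrays it was 1 of the 18 left, against 5.70%. Probes 2-fold apart between the sheep in both subsets numbered 1, in place of 0, with median centring and with the scanner's processed signals. Probes high on 1 subset array numbered 3 of 37 in place of 8 with the model on all spots, against 11.2% of tested probes. With the stricter filter they were 4 of the 18 left, against 11.6% of tested probes. WC1 probes below the self-hybridisation on all 4 subset arrays numbered 3 in place of 6 with the model on all spots and 2 of the 2 left by the stricter filter. With median centring the share of all tested probes below it on all 4 rose from 26.3% to 37.0%.

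The WC1 median against total DC in CD26+ cells was -0.41 with the model on all spots, -0.66 with median centring, -0.44 with processed signals, -0.50 with no filter, -0.88 with the stricter filter and -0.50 to -0.49 leaving out 1 array. In CD26- cells the values were -0.037, -0.64, -0.49, -0.62, -0.78 and -0.55 to -0.52, with -0.47 without background subtraction. The cause of these shifts was not tested. Signal over background limits most delta chain probes.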
